A study of Mus musculus with 24 samples.

Results

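The embryonic and adult globin genes were followed across 24 bulk RNA-seq libraries of mouse fetal liver cells that carry a Gata1s mutation, with and without extra miR-125b. The genes were found by matching the Ensembl identifiers of the deposited count table to symbols, and they are 7 of its 47069 genes. Hba-a1 and Hba-a2 encode adult alpha-globin, Hba-x encodes the embryonic zeta chain, Hbb-bt and Hbb-bs encode adult beta-globin, and Hbb-y and Hbb-bh1 encode embryonic beta-like chains. Of the 7, 6 passed the filter on low counts and were tested; Hba-x did not.

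All cells came from fetal livers of E12.5 to E13.5 embryos of the B6J.129(Cg) background with the Gt(ROSA)26Sor allele tm1.1(CAG-cas9*,-EGFP)Fezh/J, in which the CAG promoter drives the nuclease Cas9 together with EGFP. Every group, controls included, also carried the guide RNA sgGata1, so that all comparisons are between Gata1s cells. Gata1s denotes the short GATA1 protein without the N-terminal activation domain. The second transgene was miR-125b in one arm and miR-ctrl in the other. Each arm was sampled after doxycycline at 1 µg/mL for 48 hours (day 2), for 10 days (day 10) and for 13 days (day 13, continued), and on day 13 after withdrawal of doxycycline on day 10. Each of the 8 groups held 3 libraries with replicate numbers 1 to 3. The labels name no promoter for the miRNA, do not say what doxycycline switches and do not say whether replicates were separate livers, transductions or cultures, so p-values measure the spread between these libraries only. The comparisons ask how globin transcripts differ with extra miR-125b, over time and after doxycycline was withdrawn.

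Hemoglobin is assembled from alpha-like and beta-like chains together with heme. Mouse alpha-like genes lie in one cluster on chromosome 11 and beta-like genes in another on chromosome 7, and in each cluster the embryonic genes are used mainly in primitive red cells of the yolk sac and the adult genes in definitive red cells, which the fetal liver makes in large numbers. GATA1 and KLF1 are among the factors that drive these genes, BCL11A is known as a repressor of the embryonic beta-like genes, and globin transcripts are among the most abundant of a maturing red cell.

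In the annotation of build GRCm38 (mm10) the alpha-like genes lie on the plus strand: Hba-x at chr11:32276400-32278116, Hba-a1 at chr11:32283511-32284465 and Hba-a2 at chr11:32296489-32297298. The beta-like genes lie on the minus strand: Hbb-bt at chr7:103812524-103813996, Hbb-bs at chr7:103826534-103828096, Hbb-bh1 at chr7:103841637-103843164 and Hbb-y at chr7:103851749-103853216. The stretches below are the 120 bases before the RefSeq start of each gene (GRCm38.p6), shown because members of one cluster differed in level and in their course across libraries. They lie at chr11:32296372-32296491 for Hba-a2, chr11:32276480-32276599 for Hba-x, chr7:103813924-103814043 for Hbb-bt, chr7:103827929-103828048 for Hbb-bs and chr7:103853208-103853327 for Hbb-y, and each is written 5′ to 3′ on its gene's strand. Capitals mark 4 motifs searched on both strands. They are CACCC, the box bound by KLF1, and CCAAT, the box bound by NF-Y, with GATAA, the core of GATA factor sites, and a TATA-type motif. The last was searched as ATAAA and also as TATAA, and these matches can overlap.
Hba-a2: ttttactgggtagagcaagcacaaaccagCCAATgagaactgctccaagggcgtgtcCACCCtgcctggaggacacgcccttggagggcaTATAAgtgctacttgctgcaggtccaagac
Hba-x: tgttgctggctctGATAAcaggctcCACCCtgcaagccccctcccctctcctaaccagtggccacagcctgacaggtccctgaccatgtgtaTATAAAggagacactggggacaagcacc
Hbb-bt: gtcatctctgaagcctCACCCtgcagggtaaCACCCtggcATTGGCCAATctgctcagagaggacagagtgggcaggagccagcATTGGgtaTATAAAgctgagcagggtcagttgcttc
Hbb-bs: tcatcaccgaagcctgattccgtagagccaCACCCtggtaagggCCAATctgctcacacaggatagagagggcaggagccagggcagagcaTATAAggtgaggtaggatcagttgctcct
Hbb-y: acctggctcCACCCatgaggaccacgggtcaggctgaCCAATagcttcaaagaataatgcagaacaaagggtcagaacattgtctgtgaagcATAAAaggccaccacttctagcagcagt

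All 5 printed stretches held a CACCC, which 31.7% of 32851 RefSeq promoter stretches of the same length hold, and a TATA-type motif, which 24.3% hold. CCAAT, held by 21.3%, was in 4 of them and not in that of Hba-x. GATAA, held by 10.5%, was in that of Hba-x alone. The stretch of Hba-a1 shares a run of 117 bases with that of Hba-a2 and holds the same motifs, and the adult beta genes differed by 31 edits over the 120 bases. Hbb-bt held 2 matches to CACCC and 3 to CCAAT, against 1 and 1 in Hbb-bs. These matches describe the sequence only.

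The mature miR-125b-5p of RefSeq is shown because it is the agent compared, with its seed (bases 2 to 8) in capitals.
miR-125b-5p: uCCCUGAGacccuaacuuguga

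The complement of this seed, CTCAGGG, was searched in the annotated protein-coding transcripts on their own strand. Of the 7 globin genes, only Hba-a1 held it, at bases 27 to 33 of its 699-base transcript (chr11:32283537-32283543), in the 5′ UTR, and this part of the model lies upstream of the RefSeq start. The other 6 had no match in any protein-coding transcript. Among the 1457 protein-coding genes whose transcripts are no longer than 801 bases, the longest of the globin transcripts, 5.28% held it, and over all 21877 genes 28.7% did. A match describes the letters and is not shown to be a site.

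Before the comparisons, the libraries were checked against their labels. Total counts were 14694900 to 23755245 per library. Gata1 was measured in every library, at 194 to 514 CPM (TMM-normalised read counts scaled to a library of 1000000), and differed in none of the miR-125b comparisons (lowest adjusted p = 0.775, edgeR's quasi-likelihood test); a total count over the gene does not show whether its transcript is the shortened one. If doxycycline switches the miRNA on, which the labels do not say, Arid3a went against those labels on day 13. Arid3a is the miR-125b target named in the study's title. Its log2 difference between miR-125b and control was -0.88 (adjusted p = 0.0230) at day 10, -0.22 (adjusted p = 0.999) in the libraries labelled as continued doxycycline, and -1.15 (adjusted p = 0.00435) in those labelled as withdrawal. Groups are therefore named below as the libraries labelled continued or withdrawal. Every direction between those groups rests on labels that Arid3a does not follow under that reading.

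The cells were checked by marker sums. Megakaryocyte markers summed to 3105 to 8155 CPM, mast cell and basophil markers to 341 to 1741, and erythroid markers to 120 to 263. Most of the mast cell and basophil sum (median 642 CPM) came from Gata2, with a median of 427. The next highest gene of that list was Il1rl1, at 50.9. Endothelial markers, several of which megakaryocytes also express, came to 138 to 234 CPM. Lymphoid markers came to 3.37 to 61.7, macrophage markers to 6.04 to 33.4 and hepatoblast markers to 2.01 to 4.88. The lymphoid sum (median 25.5 CPM) was nearly all Ighm (median 25.1). Slc4a1, the anion exchanger that defines maturing red cells, had 0 counts in all 24 libraries, and Alas2, the heme synthesis enzyme of red cells, had a median of 0.322 CPM. Neutrophil and monocyte markers summed to 34.4 to 103 CPM with miR-125b against 7.99 to 31.9 in control at day 10, and to 44.9 to 63.6 against 7.69 to 41.0 in the libraries labelled withdrawal. Of 12 such markers, 7 were tested, 5 and 7 of them lay above 0 in these comparisons, and 1 was called higher in each (Mpo, the neutrophil peroxidase). Of all tested genes, 0.872% and 0.119% were called in these comparisons. At day 2 and in the libraries labelled continued, 6 of the 7 also lay above 0 (median log2 differences 0.86 and 2.07), with 0 called. The part of these markers in the globin values was not tested. In bulk libraries, fewer cells of a type and less RNA per cell cannot be told apart.

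Globin transcripts were scarce. All 7 genes together took 0.00156% to 0.0171% of the counts of a library. Per kilobase of exon, the median level over the 24 libraries was 24.7 CPM for Hbb-bs, 17.8 for Hba-a1, 15.5 for Hbb-bt, 2.76 for Hba-a2, 1.31 for Hbb-bh1, 1.14 for Hbb-y and 0 for Hba-x. Hbb-bs stood at the 83.3rd percentile of the tested genes by this level and Hbb-y at the 25.7th. The first 3 could not be ordered by library: Hbb-bs was above Hba-a1 in 15 of 24 libraries and Hba-a1 above Hbb-bt in 14. Each of these 3 was above the other 4 in all 24 libraries. Lower in the order, Hba-a2 was above Hbb-bh1 in 19 libraries, and Hbb-bh1 was above Hbb-y in 15.

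**Figure D1:**
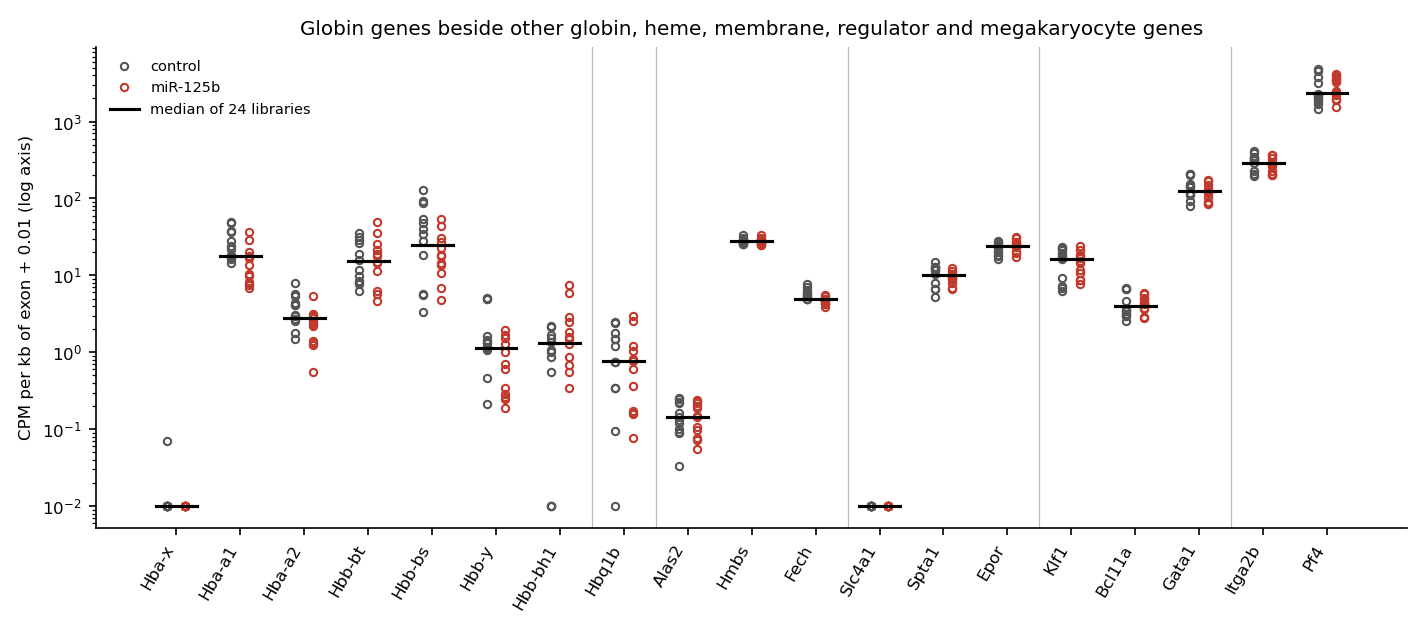
Level per kilobase of exon (CPM per kb plus 0.01, log axis) of the 7 globin genes and of 12 other genes, 1 open circle per library (grey, control; red, miR-125b) and a bar at the median of 24 libraries. Hbb-bs, Hba-a1 and Hbb-bt lie near Klf1 (median 16.6 CPM per kb), Hba-x and Slc4a1 lie at the bottom, and the megakaryocyte gene Pf4 (median 2334 CPM per kb) lies at the top.

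Beside them, Klf1, the erythroid activator of adult beta-globin, stood at 9.61 to 36.6 CPM with a median of 25.4. Bcl11a had a median of 53.1 CPM and ranged from 34.0 to 89.5. The globin stabilising protein Ahsp was not analysed here.

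Reads could not be assigned freely within 2 pairs of genes. Of all 50-base windows in the annotated transcripts, 72.3% of those of Hba-a1 and 89.3% of those of Hba-a2 are shared between these copies, and 58.3% of those of Hbb-bt and 53.2% of those of Hbb-bs are shared between the adult beta genes. Hba-x, Hbb-y and Hbb-bh1 share no such window with another member. How the counting treated reads that fit more than 1 gene is not given in the sources used here, so the division of counts within these pairs is uncertain, and so are the levels of these 4 genes beside those of the other members. Any share that sets embryonic against adult counts, or ratio of beta-like to alpha-like counts, carries the same uncertainty.

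Hba-a1 was lower with miR-125b in every replicate pair of 3 of the 4 comparisons, and no difference passed the test without a replicate block. At day 2 it stood at 10.99, 6.33 and 8.39 CPM with miR-125b (replicates 1, 2 and 3) and at 14.9, 13.3 and 17.8 in control. The groups did not overlap, and the log2 difference was -0.84 ± 0.57 (SE; adjusted p = 1.00, edgeR's quasi-likelihood test). Of all tested genes, 6.22% were likewise lower without overlap in this comparison. At day 10 the values were 23.2, 6.09 and 13.7 with miR-125b and 30.3, 14.2 and 22.6 in control. The groups overlapped, although miR-125b was the lower of each pair, with a log2 difference of -0.65 ± 0.57 (adjusted p = 0.624, edgeR) that lay between -1.18 and -0.28 when 1 library was left out. Hba-a1 stood in the libraries labelled continued at 29.9, 6.59 and 16.2 with miR-125b and at 19.7, 11.9 and 40.4 in control. Here replicate 1 went the other way, and the difference of -0.45 ± 0.56 (adjusted p = 0.999, edgeR) became 0.16 without control replicate 3.

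The widest gap for Hba-a1 was in the libraries labelled withdrawal. It stood at 14.6, 5.60 and 8.05 CPM with miR-125b and at 29.6, 14.2 and 39.1 in control, with miR-125b lower in 3 of 3 pairs and only the highest miR-125b value above the lowest control value. The log2 difference was -1.55 ± 0.58 (unadjusted p = 0.0149, adjusted p = 0.423, edgeR). With the replicate number as a block it was -1.55 ± 0.35 (adjusted p = 0.0325, edgeR), which passed the test. In that blocked fit 1.86% of all tested genes passed, and Hba-a1 was the only globin gene that did.

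Hba-a2, the less counted alpha copy, was at 0.368 to 5.25 CPM. At day 2 it stood at 1.45, 0.876 and 0.368 with miR-125b and at 2.005, 1.20 and 2.73 in control, lower in 3 of 3 pairs, with a log2 difference of -1.14 ± 0.50 (unadjusted p = 0.0327, adjusted p = 0.923, edgeR). At day 10 the values were 2.11, 0.812 and 1.68 against 1.80, 1.99 and 0.976, which overlapped widely. The libraries labelled continued held 3.64, 1.96 and 1.88 against 1.72, 2.75 and 5.25, again overlapping. Those labelled withdrawal held 1.57, 0.933 and 1.60 against 2.92, 3.58 and 3.79, without overlap, as 5.62% of all tested genes were in that direction. The log2 difference there was -1.32 ± 0.48 (adjusted p = 0.404, edgeR) and -1.36 ± 0.44 with the block (adjusted p = 0.119, edgeR).

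Summing the alpha copies removes the question of how counted reads were divided between them, but not whether shared reads were counted at all. The sum left the picture of Hba-a1, since Hba-a2 gave 4.14% to 22.9% of it. The sum was 9.47 ± 2.69 CPM with miR-125b and 17.3 ± 3.06 in control at day 2 (SD, n = 3), without overlap, with a log2 difference of -0.87 ± 0.54 (adjusted p = 0.982, edgeR). On withdrawal by label it was 10.8 ± 4.92 against 31.1 ± 12.6, also without overlap. The log2 difference of -1.53 ± 0.54 (adjusted p = 0.399, edgeR) passed the test with the replicate block (-1.54 ± 0.33, adjusted p = 0.0273, edgeR).

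Hba-x, the embryonic alpha-like gene, had 1 count in all, in the day 13 control library of replicate 3 labelled continued. The other 23 libraries had 0 counts, which allows at most 0.126 to 0.204 CPM per library (3 counts, counting error only). Of 8828 alpha-like counts over the 24 libraries, 1 was Hba-x, so no difference between groups was detectable at this depth.

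**Figure D2:**
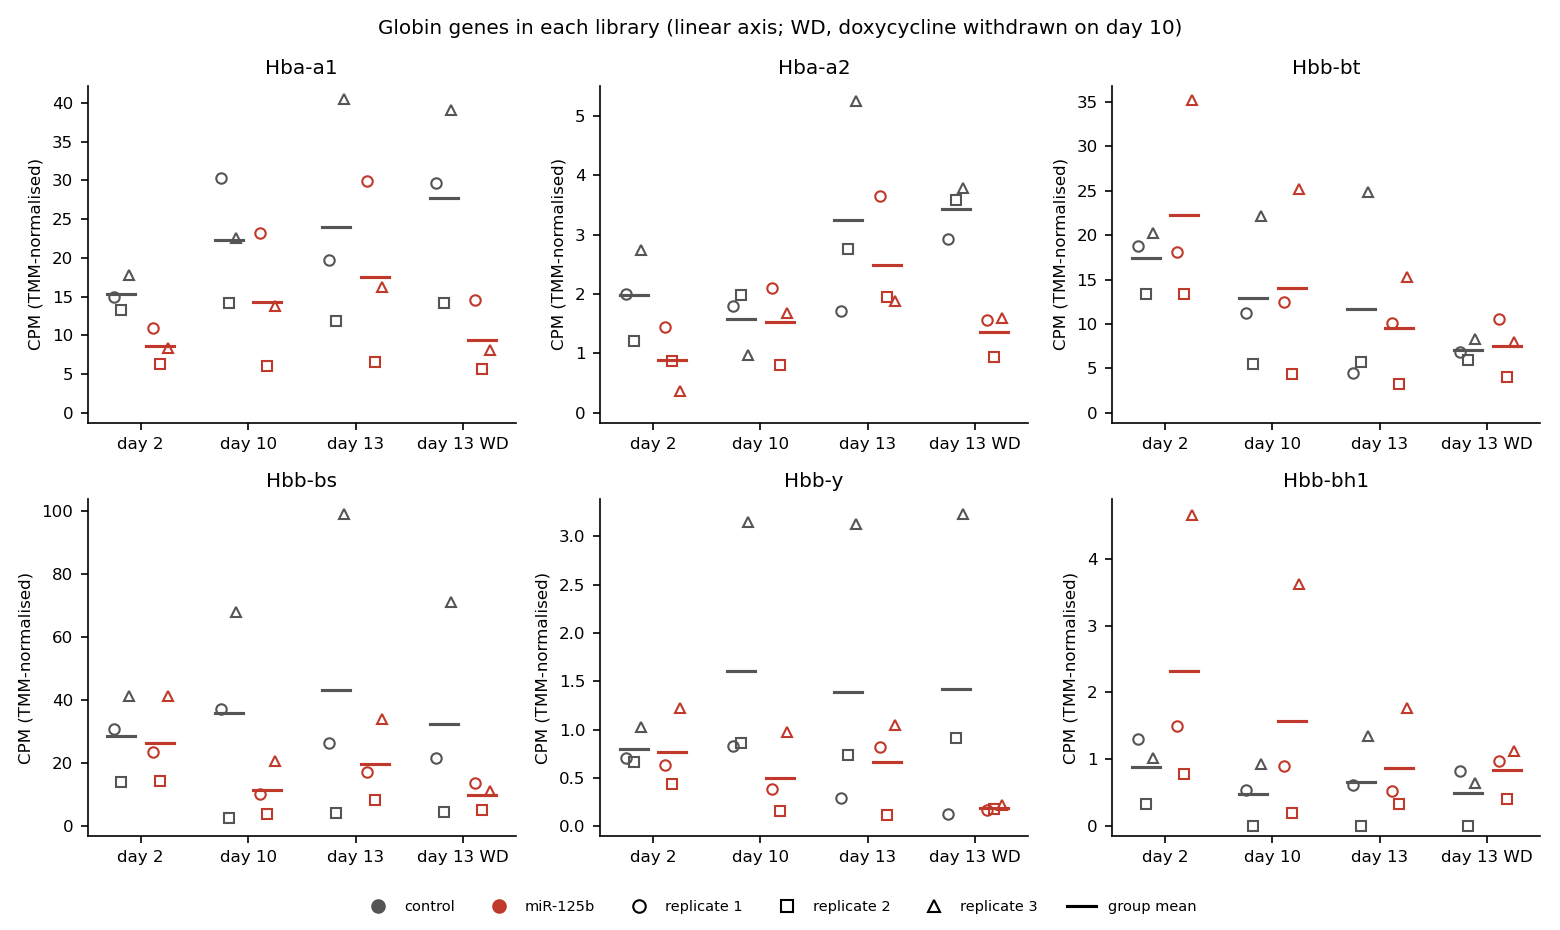
CPM (TMM-normalised, linear axis) of the 6 tested globin genes in each of the 24 libraries, by time and label (WD, withdrawal). Grey marks control and red miR-125b, the symbol gives the replicate number and bars are group means of 3. Squares (replicate 2) lie lowest for Hba-a1, Hbb-bs and Hbb-bh1 in all 8 groups, and Hba-a1 with miR-125b lies under control in the day 2 groups.

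Hbb-bt, an adult beta gene, hardly differed between the arms relative to its spread. At day 2 it stood at 18.1, 13.4 and 35.2 CPM with miR-125b and at 18.8, 13.3 and 20.3 in control. At day 10 the values were 12.52, 4.36 and 25.1 against 11.2, 5.47 and 22.1, so that the replicates lay in the same order in both arms. In the libraries labelled continued they were 10.1, 3.24 and 15.2 against 4.44, 5.69 and 24.9, and in those labelled withdrawal 10.6, 4.08 and 8.001 against 6.87, 5.92 and 8.35. All 4 pairs of groups overlapped. The log2 differences lay between -0.29 ± 0.71 and 0.34 ± 0.70 (SE), and the lowest adjusted p was 0.962 (edgeR).

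Hbb-bs, its neighbour and the most abundant member, had the widest range among the control libraries. At day 2 the values were 23.6, 14.3 and 41.4 CPM with miR-125b and 30.7, 14.1 and 41.4 in control, almost the same. At day 10 they were 10.3, 3.70 and 20.6 with miR-125b, and 37.1, 2.52 and 68.0 in control. Replicates 1 and 3 were lower with miR-125b and replicate 2 was not, and the log2 difference was -1.63 ± 1.12 (adjusted p = 0.498, edgeR). The libraries labelled continued stood at 17.3, 8.33 and 33.9 against 26.3, 4.28 and 98.9, and those labelled withdrawal at 13.8, 5.25 and 11.1 against 21.7, 4.44 and 71.1. In both sets replicates 1 and 3 were again the lower ones. The differences of -1.12 ± 1.10 and -1.69 ± 1.13 did not pass the test (adjusted p = 0.999 and 0.719, edgeR), and without control replicate 3 they were 0.37 and -0.37. The day 10 difference was -0.78 without control replicate 3.

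Hbb-y, the embryonic epsilon-type gene, gave 2 to 75 counts per library. At day 2 it stood at 0.636, 0.438 and 1.23 CPM with miR-125b and at 0.705, 0.667 and 1.03 in control. At day 10 the values were 0.383, 0.152 and 0.973 against 0.826, 0.859 and 3.15, with miR-125b lower in 3 of 3 pairs. The log2 difference there was -1.66 ± 0.95 (adjusted p = 0.390, edgeR), the lowest adjusted p of the 6 genes at that time. It was -0.74 when control replicate 3 was left out and -2.59 when miR-125b replicate 3 was. For the libraries labelled continued the values were 0.815, 0.112 and 1.05 against 0.287, 0.734 and 3.13. The libraries labelled withdrawal stood at 0.162, 0.175 and 0.213 with miR-125b, which is 3, 3 and 4 counts. Control stood there at 0.127, 0.907 and 3.23, which is 2, 19 and 75 counts. Control replicate 1 thus lay under all of the miR-125b libraries, and the other 2 control libraries lay above them. The log2 difference of -2.93 ± 1.06 was the widest of any member in any miR-125b comparison (unadjusted p = 0.0119, adjusted p = 0.404, edgeR). Without control replicate 3 it was -1.51. Hbb-y passed the low-count filter over all 24 libraries, but not when only these groups were fitted. With the replicate block and all libraries the difference was -2.70 ± 0.71 (adjusted p = 0.0526, edgeR), just short of the threshold.

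Hbb-bh1, the other embryonic beta-like gene, was the 1 member whose fitted difference was above 0 in all 4 miR-125b comparisons. At day 2 it stood at 1.504, 0.778 and 4.66 CPM with miR-125b and at 1.30, 0.334 and 1.03 in control, higher in 3 of 3 pairs, with a log2 difference of 1.35 ± 1.14 (adjusted p = 1.00, edgeR). At day 10 the values were 0.895, 0.203 and 3.62 against 0.535, 0 and 0.922, again higher in 3 of 3 pairs (1.68 ± 1.20, adjusted p = 0.516, edgeR). On day 13 the libraries labelled continued held 0.527, 0.335 and 1.77 against 0.621, 0 and 1.34, higher in 2 of 3. Those labelled withdrawal held 0.974, 0.408 and 1.12 against 0.827, 0 and 0.646, higher in 3 of 3. The 3 values of 0 are the control libraries of replicate 2, and 0 counts allow at most 0.159, 0.183 and 0.144 CPM there (3 counts per library). No group pair was free of overlap, and the highest log2 difference was 0.14 when the day 10 miR-125b library of replicate 3 was left out.

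Across the 4 miR-125b comparisons, 0 of 6 tested globin genes passed an adjusted p of 0.05 without the block (edgeR). Of all 13419 tested genes, 0% passed at day 2 (709 at an unadjusted p under 0.05), 0.872% at day 10 (2334), 0% in the libraries labelled continued (388) and 0.119% in those labelled withdrawal (1147). At an unadjusted p under 0.05 without the block the count was 1, 0, 0 and 3 of 6 in the same order. The 3 were Hba-a1, Hba-a2 and Hbb-y. DESeq2 also called 0 in each, but at day 2 it gave no adjusted p for Hba-a2, Hbb-y and Hbb-bh1. The median log2 difference of the 6 genes was -0.10, -0.35, -0.41 and -1.44, while the median over all tested genes lay between -0.02 and 0.00. With the replicate block, 0%, 8.63%, 0.0149% and 1.86% of all genes passed, and of the globin genes 0, 0, 0 and 1. At an unadjusted p under 0.05 the blocked fit held Hba-a1, Hba-a2 and Hbb-bh1 at day 2, among 1229 of all genes. At day 10 it held Hba-a1, Hbb-bs, Hbb-y and Hbb-bh1, among 3416. In the libraries labelled continued it held no globin gene, among 855. In those labelled withdrawal it held Hba-a1, Hba-a2 and Hbb-y, among 2100.

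**Figure D3:**
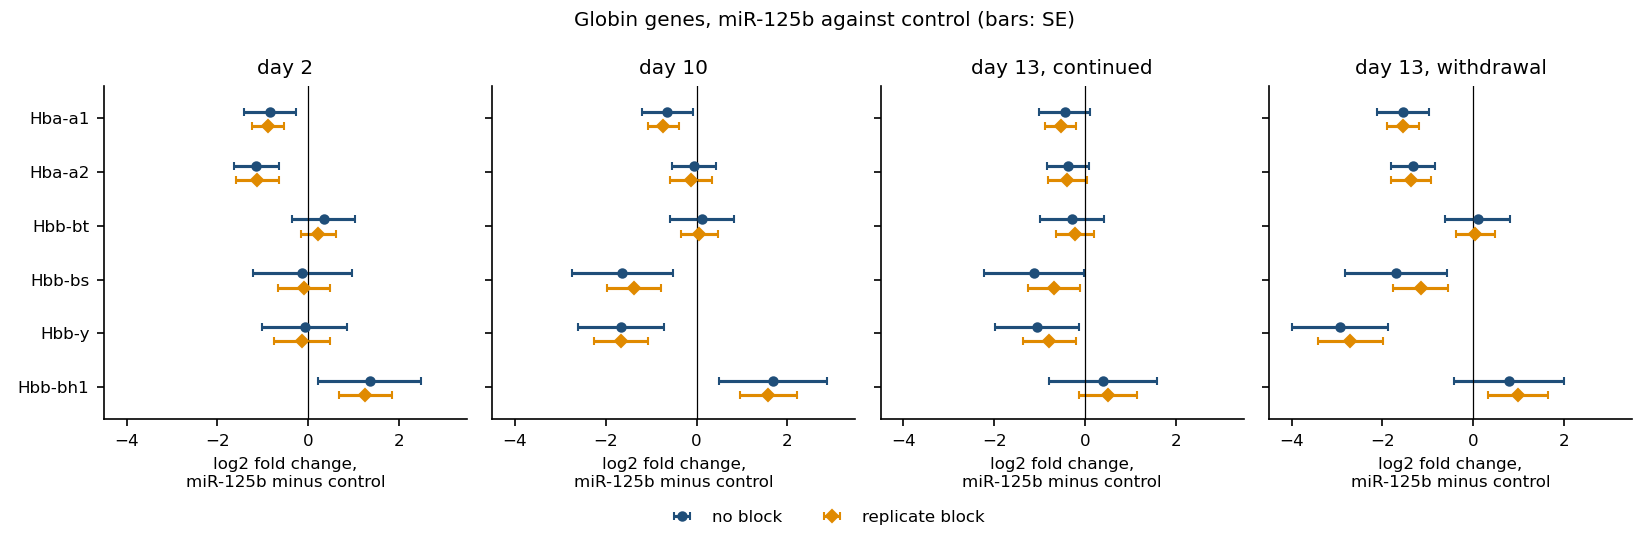
Log2 fold change (miR-125b minus control, horizontal axis) of each tested globin gene at the 4 conditions, with bars of 1 SE, without (blue circles) and with (orange diamonds) the replicate number as a block. Hba-a1 lies under 0 in all 4 panels and Hbb-bh1 above 0, and the blocked value of Hba-a1 in the withdrawal panel (-1.55 ± 0.35) is the one that passed the test.

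Replicate number accounted for more of the spread of 4 of the 6 genes than the group did. It held 66.1% of the variance of log2(CPM + 1) for Hbb-bs, 55.0% for Hbb-bh1, 45.5% for Hbb-bt, 42.4% for Hbb-y, 37.5% for Hba-a1 and 4.04% for Hba-a2. The 8 groups held 15.7%, 28.4%, 34.3%, 29.8%, 45.2% and 61.1% in the same order. These shares are not adjusted for the 8 groups being more categories than the 3 replicate numbers. Replicate 2 was lowest in 8 of 8 groups for Hba-a1, Hbb-bs and Hbb-bh1, and replicate 3 was highest in 8 of 8 for Hbb-y. Klf1 was also lowest in replicate 2 in 8 of 8 groups and Bcl11a in 7, and Gata1 was highest there in 8 of 8. What the numbers stand for is not given in the labels.

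Withdrawal was then compared with continued doxycycline on day 13, in each arm. With miR-125b, the fitted difference of all 6 tested genes was under 0, with a median of -0.88, against 0.00 over all genes. None passed the test (lowest adjusted p = 1.00, edgeR; 0 at an unadjusted p under 0.05 and 0 by DESeq2), and 0% of all tested genes did. Hba-a2 was the 1 member without overlap between these groups (log2 difference -0.86 ± 0.48), and 4.45% of all tested genes were lower without overlap. Hba-a1 differed by -0.90 ± 0.57 and was the lower of 3 of 3 pairs, and Hbb-y by -1.81 ± 1.09 in 2 of 3. With the block these genes had unadjusted p-values of 0.0312 and 0.0258 and did not pass (adjusted p = 0.991 and 0.978, edgeR). Hbb-y did not pass the low-count filter when only these groups were fitted. In control, 3 of the 6 differences were above 0 and 3 under it, from -0.72 for Hbb-bt to 0.21 for Hba-a1, and none passed, as for 0% of all genes. An interaction term for the effect of withdrawal in one arm against the other passed for no member (Hba-a1 -1.11 ± 0.80, Hbb-y -1.88 ± 1.40; adjusted p = 1.00 for each, edgeR).

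Over time, 0 of 6 members passed in either arm (edgeR), and DESeq2 also called 0, although between day 2 and day 10 in control it gave no adjusted p for Hba-a2, Hbb-y and Hbb-bh1. At an unadjusted p under 0.05 the only one without the block was Hba-a2 in control, between day 10 and day 13. With the block Hbb-bs with miR-125b also was, between day 2 and day 10 (unadjusted p = 0.0319, adjusted p = 0.178, edgeR). From day 2 to day 10, Hba-a1 differed by 0.74 ± 0.58 with miR-125b and 0.54 ± 0.56 in control, in the same direction. Hbb-bt, Hbb-bs, Hbb-y and Hbb-bh1 were lower at day 10 in 3 of 3 miR-125b pairs, with log2 differences of -0.66, -1.19, -0.59 and -0.54. In control the same genes differed by -0.43, 0.32, 0.99 and -0.88. Hbb-y was thus lower in 3 of 3 pairs with miR-125b and higher in 3 of 3 in control, but the interaction of -1.58 ± 1.33 did not pass (adjusted p = 0.860, edgeR). Of all tested genes, 0.224% passed with miR-125b and 0% in control. From day 10 to the day 13 libraries labelled continued, Hba-a2 in control had a log2 difference of 1.02 ± 0.48 (unadjusted p = 0.0443, adjusted p = 1.00, edgeR), where 0.0224% of all genes passed. With miR-125b, where 3.53% of all genes passed, Hba-a2 differed by 0.71 ± 0.48 (adjusted p = 0.429, edgeR).

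The embryonic share of the beta-like counts, (Hbb-y + Hbb-bh1) over all 4 beta-like genes, does not depend on how libraries are scaled. It lay between 2.74% and 9.70% with a median of 4.55%. At day 2 it was 4.89%, 4.22% and 7.14% with miR-125b and 3.90%, 3.51% and 3.22% in control, so that the groups did not overlap. The means were 5.41% ± 1.53 and 3.54% ± 0.34 (SD, n = 3; exact two-sided permutation p = 0.1, the smallest that 3 against 3 allows; 1.00 after Benjamini-Hochberg adjustment over 20 tests). At day 10 the means were 6.21% ± 2.58 and 5.59% ± 3.65 (exact permutation p = 0.8), in the libraries labelled continued 4.60% ± 0.85 and 4.40% ± 2.15 (exact permutation p = 0.9), and in those labelled withdrawal 5.62% ± 1.06 and 5.31% ± 2.48 (exact permutation p = 1). The highest share, 9.70%, was 165 beta-like counts of day 10 control replicate 2 (95% Wilson interval 6.06% to 15.2%, counting error only), and all of its embryonic counts were Hbb-y. The day 2 difference rested on Hbb-bh1: with Hbb-y alone it was -0.26 percentage points.

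**Figure D4:**
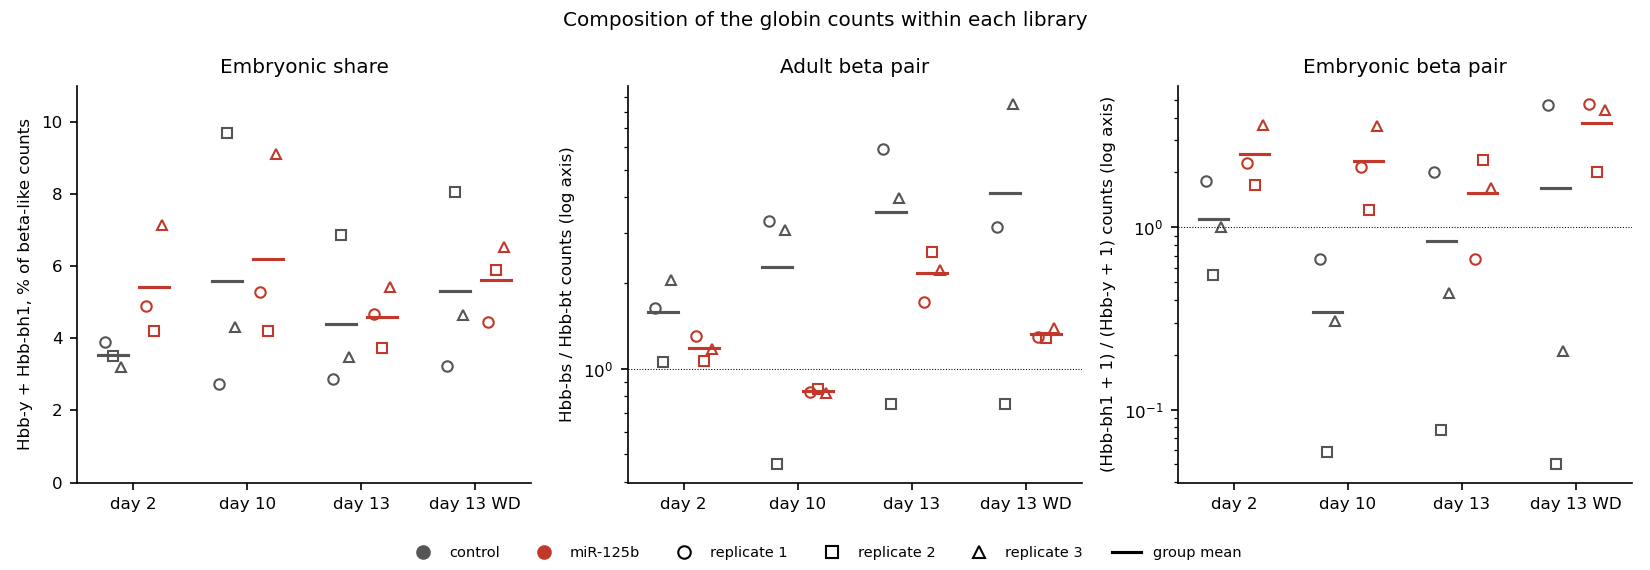
Per library, the embryonic percent of beta-like counts (left, linear axis), the count ratio of Hbb-bs to Hbb-bt (middle, log axis) and that of Hbb-bh1 + 1 to Hbb-y + 1 (right, log axis), with grey for control, red for miR-125b, symbols for replicate numbers and bars at group means of 3. The day 2 shares of the arms do not overlap, the 3 day 10 miR-125b libraries have nearly the same Hbb-bs to Hbb-bt ratio (0.822 to 0.849), and control replicate 2 has the lowest ratios on the right.

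Ratios within the adult and within the embryonic beta pair were also compared between libraries. They were chosen after their values were seen and are given without a test. Hbb-bs over Hbb-bt ranged from 0.461 to 8.52 in control libraries, with 0.461 to 1.06 in those of replicate 2, and from 0.822 to 2.57 with miR-125b. With miR-125b the 3 libraries ranged from 1.07 to 1.31 on day 2, from 0.822 to 0.849 on day 10, from 1.71 to 2.57 in the libraries labelled continued and from 1.29 to 1.39 in those labelled withdrawal. The ratio (Hbb-bh1 + 1) over (Hbb-y + 1) ranged from 0.05 to 4.67 in control and from 0.667 to 4.75 with miR-125b, and miR-125b was the higher of the pair in 11 of 12 pairs. Since the libraries of a number share a source of variation, the 12 pairs are not independent.

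Across the 24 libraries, the members did not all vary together. As a description over libraries that share groups and replicate numbers, Pearson's r of log2(CPM + 1) was 0.70 between Hba-a1 and Hba-a2 and 0.69 between Hbb-bt and Hbb-bs, the pairs that share sequence. It was 0.79 between Hbb-bt and Hbb-bh1 and 0.23 between the embryonic genes Hbb-y and Hbb-bh1. The non-member genes most like the summed adult globins (of 9724 genes with an average log2 CPM of at least 2) were F10, which encodes coagulation factor X (r = 0.89), Gstk1 (0.86), Rasl11a (0.86), Muc13 (0.85) and Prrc1 (0.85). Those most like the summed embryonic globins were Lrrfip2 (0.89), Pef1 (0.87), Cebpb (0.87), a transcription factor of myeloid cells, Muc13 (0.86) and Prcp (0.86).

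Among 23 known globin regulators, 22 were tested, and 1 was called lower at day 10 with miR-125b, where 0.872% of all genes were called (edgeR). At day 2, in the libraries labelled continued and in those labelled withdrawal, 0 were called (edgeR; 3, 1 and 4 at an unadjusted p under 0.05). Of all 13419 genes, 0%, 0% and 0.119% were called there, with 709, 388 and 1147 at an unadjusted p under 0.05. The regulator called at day 10 was Lin28b, an RNA-binding protein of fetal blood cells, with a log2 difference of -0.58 ± 0.11 (adjusted p = 0.0262, edgeR). It stood at 33.2 to 37.0 CPM against 46.8 to 56.7. On day 13 Lin28b differed by 0.04 in the libraries labelled continued and by -0.34 (adjusted p = 0.356, edgeR) in those labelled withdrawal, and from day 10 to the continued libraries it rose by 0.71 with miR-125b (adjusted p = 0.00899, edgeR). Igf2bp3, another fetal RNA-binding protein, rose there too, by 0.51 (adjusted p = 0.0473, edgeR); these were the 2 of 22 called there, against 3.53% of all genes. Klf1 and Bcl11a were not called: Klf1 differed by -0.08, -0.06, -0.03 and -0.38 in the 4 miR-125b comparisons and Bcl11a by -0.11, 0.24, 0.11 and -0.05. Of the 22 tested regulators, 15 lay under 0 at day 2, 13 at day 10, 8 in the libraries labelled continued and 18 in those labelled withdrawal, with medians of -0.09, -0.08, 0.04 and -0.18. With the replicate block, which called 8.63% of all genes at day 10 and 1.86% in the libraries labelled withdrawal, 4 regulators were lower at day 10, among them Zbtb7a (-0.40, adjusted p = 0.0285, edgeR), a known repressor of fetal globin in humans, and 1 in the libraries labelled withdrawal, Nfe2 (-0.34, adjusted p = 0.0392, edgeR).

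Of 23 genes for heme synthesis and globin handling, 22 were tested, and at day 10 18 of them lay under 0 and 4 above, with a median of -0.19. Uros, the enzyme that closes the porphyrin ring, was the 1 that fell (-0.64 ± 0.14, adjusted p = 0.0409, edgeR), and with the block 3 did, where 0.872% and 8.63% of all genes were called. None was called in the other 3 miR-125b comparisons (edgeR; 0, 0 and 5 at an unadjusted p under 0.05). From day 10 to the day 13 libraries labelled continued, Flvcr1 (0.66), a heme exporter, and Uros (0.56) were among 3 of the 22 that rose with miR-125b (adjusted p = 0.0190 and 0.0378, edgeR), where 3.53% of all genes were called. With the block 5 were called higher and 1 lower. Alas2 was not called in any miR-125b comparison, with differences of 0.44, -0.32, 0.32 and -1.10 (SE 0.55 to 0.63), and its 24 counts lay between 1 and 12.

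Of 24 red cell membrane and late erythroid genes, 23 were tested and none was called in the 4 miR-125b comparisons (edgeR; 1, 3, 0 and 3 at an unadjusted p under 0.05), with 10, 14, 15 and 15 of them under 0 and medians of 0.04, -0.12, -0.04 and -0.25. With the block, 2 of 23 were called higher at day 10, a share near the 8.63% of all genes, among them Bnip3l (0.33, adjusted p = 0.0494, edgeR), which takes part in the removal of mitochondria from maturing red cells. In the libraries labelled withdrawal the block called 1.86% of all genes, and of this list Kel (-0.66, adjusted p = 0.0260, edgeR), a red cell surface protein. Without the block 0.119% of all genes passed there, and 52.3% of all genes lay under 0 (median -0.01). In that same comparison 15 of 18 megakaryocyte markers lay under 0 (median -0.64). Of these markers, 0 were called without the block (3 at an unadjusted p under 0.05, edgeR) and 6 were called lower with it. Their sum was 3506 to 5804 CPM with miR-125b and 3240 to 8155 in control. Erythroid markers summed to 179 to 225 CPM against 148 to 263, with 8 of 12 tested under 0 (median -0.38) and 0 called with or without the block (1 at an unadjusted p under 0.05, edgeR). The part of either list in the lower alpha-globin counts was not tested.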

How the data were processed

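The authors deposited 1 table of whole-number read counts per gene, with 1 column for each of the 24 libraries. Per the labels' protocols, a column kit gave total RNA, which was sequenced on an Illumina instrument. The submitters' processing notes name fastp, HISAT2 2.0.5, featureCounts and build mm10, while the annotation release, strandedness and treatment of multiply mapped reads are not given in the sources used here.

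Columns were matched to libraries by the sample descriptions. Names, exon lengths and coordinates come from GENCODE M21 (46574 of 47069 identifiers matched, and the rest held no more than 0.0306% of the counts in any library), and promoter and miRNA sequences from RefSeq (GRCm38.p6); 6 of the 7 members were in the promoter table. Testing used edgeR 4.0.16 in R 4.3.3 (filterByExpr by group, 13419 genes; TMM factors 0.932 to 1.04; robust quasi-likelihood F test, all 24 libraries, 1 coefficient per group, Benjamini-Hochberg over all genes, threshold 0.05). SEs were derived from the F statistic. DESeq2 1.42.0, the replicate block, other scaling and filters, summed alpha copies and leaving out libraries were alternatives. Within-library shares were compared by exact permutation. The fitting script was tested on simulated data. Total counts limit precision as given, and all replicate pairs differed beyond sampling noise (chi-square per degree of freedom 11.6 to 109).

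Replicate numbers paired the libraries: deviations from the group means correlated above 0.1 in 84 of 84 same-number pairs (0.163 to 0.781, median 0.475), against a median of -0.304 for different numbers. For the globin genes, the blocked value is given where it changed a call. For the gene lists it is given in some comparisons only.

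The members and lists were chosen with earlier results of these data known. The rule named the 7 members, Klf1, Bcl11a, Ahsp and Alas2, up to 3 called members per list and comparison, and the 5 genes most like each globin sum; some genes it names are not reported here.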

Additional observations from a re-analysis of the deposited data

How the results depend on the processing

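Globin counts were few, so that 2 to 75 counts of Hbb-y and 0 to 76 of Hbb-bh1 per library set the limit of every embryonic value, and 0 to 1 counts that of Hba-x. No globin gene was called under any alternative run without the replicate block. The block raised the count of called members in the libraries labelled withdrawal from 0 to 1 (Hba-a1, -1.55; summed alpha copies -1.54) and changed no other call; it turned Hbb-bh1 between withdrawal and continued with miR-125b (0.092) and Hbb-bs between day 10 and day 2 in control (-0.15). RLE scaling, total counts, no filter and DESeq2 reversed none of the 60 to 62 values each. Neither did the newer quasi-likelihood estimate (chosen after seeing the data) or fits of only the groups compared. In the last, 2 values of Hbb-y are missing because the low-count filter removed the gene. They are miR-125b against control in the libraries labelled withdrawal, and withdrawal against continued with miR-125b.

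Leaving out 1 library at a time turned some small differences. At day 2 Hbb-bt ranged from -0.15 to 0.61, Hbb-bs from -0.61 to 0.23 and Hbb-y from -0.58 to 0.21. At day 10 Hba-a2 ranged from -0.36 to 0.25 and Hbb-bt from -0.62 to 0.75. In the libraries labelled continued, Hba-a1 ranged from -1.07 to 0.16, Hba-a2 from -0.75 to 0.16, the summed copies from -1.03 to 0.16, Hbb-bt from -0.80 to 0.91, Hbb-bs from -1.75 to 0.37, Hbb-y from -1.54 to 0.40 and Hbb-bh1 from -0.60 to 1.40. In those labelled withdrawal, Hbb-bt ranged from -0.22 to 0.40. Between withdrawal and continued with miR-125b, Hbb-bt ranged from -0.74 to 0.18 and Hbb-bh1 from -0.44 to 0.94. Between day 10 and day 2, Hbb-bh1 with miR-125b ranged from -2.09 to 0.47 and Hbb-bs in control from -0.54 to 0.87.

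The embryonic share (differences in percentage points) with Hbb-y alone was reversed in the 4 miR-125b comparisons (-0.26, -3.06, -1.44 and -2.93), between withdrawal and continued (-0.78) and between day 13 and day 10 with miR-125b (0.12). Leaving out 1 library moved it between -0.83 and 2.68 at day 10, -0.57 and 1.43 in the libraries labelled continued, and -0.73 and 1.68 in those labelled withdrawal. Between day 10 and day 2 it ranged from -0.66 to 1.79 with miR-125b and from -0.012 to 3.46 in control, between withdrawal and continued in control from -0.46 to 2.13, and between day 13 and day 10 in control from -2.61 to 0.87. The Hba-x share in the libraries labelled continued, as a log2 ratio, was 0.10. The cause of these reversals was not tested.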

Other observations

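Of the further globin genes, Hbq1b had counts in 23 of 24 libraries, Ngb in 17, Hbb-bh2 in 15 and Adgb in 13. Hbq1b, a theta-type alpha-like gene and the 1 of 8 further globin genes to pass the filter, stood at 0 to 2.17 CPM with a median of 0.547. In the libraries labelled withdrawal its mean was 0.273 ± 0.279 CPM with miR-125b and 0.727 ± 0.437 in control (SD, n = 3), a log2 difference of -1.37 that did not pass the test, and its other differences between the arms were -0.11, 0.19 and -0.29. Hbb-bh2, a beta-like gene beside Hbb-bh1, had counts in 15 of 24 libraries and did not pass the filter. It stood at 0.101 to 0.594 CPM in the 3 miR-125b libraries of day 10 and at 0 to 0.0972 in the controls, and on day 2 at 0.0973 to 0.674 against 0 to 0.0488. In the day 13 libraries labelled continued it stood at 0.0479 to 0.166 against 0 to 0.112, and in those labelled withdrawal the mean was lower with miR-125b (0.0361 ± 0.0625 against 0.0711 ± 0.0649; SD, n = 3). No library had more than 11 counts of it.

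The ratio of beta-like to alpha-like counts also varied by library. All beta-like over all alpha-like counts ranged from 0.548 to 9.41, with 3.52, 4.01 and 9.41 in the day 2 miR-125b libraries against 3.04, 1.97 and 3.10 in control. The ratio was higher with miR-125b in 3 of 3 pairs at day 2, in 1 of 3 at day 10 (means 1.82 ± 1.27 and 2.03 ± 1.77), in 2 of 3 in the libraries labelled continued and in 3 of 3 in those labelled withdrawal. These ratios were chosen after their values were seen and have no test. They also carry the uncertainty over reads that fit more than 1 gene.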
